A study of Rattus norvegicus with 13 samples.

Results

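Fat from daughters of differently fed fathers was profiled for microRNAs (miRNAs), short RNAs that pair with messenger RNAs through their seed and lower their output. On 3 of the 13 arrays, Control 656, HFD 629 and HFD 663, the brain-enriched miR-138 was well above background, and these 3 are described here against the other 10. They were chosen by that reading: an array belongs to the set if at least 0.5 of the unflagged spots of a miR-138 probe were well above background. The choice therefore rests on measured values, so every contrast of the 3 arrays with the other 10 below is a description without a test. Only the comparison by paternal diet, which the choice did not use, was tested.

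All animals were female Sprague Dawley rats whose mothers ate chow and who were themselves weaned onto chow. In the control group (7 arrays) the father had eaten chow with 9% fat, and in the HFD group (6 arrays) high-fat pellets with 43% fat. Mating took place when the fathers were 15 weeks old, and fat was collected from their daughters at 14 weeks. The labels name neither the fat depot nor the father or litter of an animal, so p-values measure only the spread between these animals, and sisters among them could not be modelled. The array carries probes for 677 rat miRNAs. A miRNA was counted as detected on an array where a probe passed background in at least 0.5 of its spots, which held for 206 miRNAs on 1 or more arrays, for 176 on 6 or more and for 144 on all 13.

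Fat is supplied by sympathetic and sensory nerve fibres, which are wrapped by Schwann cells, the glia of peripheral nerves. In the nervous system miR-9, miR-124 and miR-128 are abundant in neurons, miR-138 is enriched in brain and acts in dendritic spines, and miR-338 and miR-219 promote the maturation of oligodendrocytes, the myelin-forming glia of the brain. miR-204 is best known from the retinal pigment epithelium and lens, and it favours fat over bone formation in mesenchymal precursors.

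The sequences shown are those of the miRNAs that lay higher on all 3 arrays than on any other array, with miR-211 and miR-7a added because their sequences resemble 2 of them. They are mature sequences from RefSeq (GRCr8), with the seed, bases 2 to 8, in capitals. The array gives older names without an arm, which were matched to the arm given in parentheses.

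miR-338 (miR-338-3p): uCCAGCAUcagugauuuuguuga
miR-204 (miR-204-5p): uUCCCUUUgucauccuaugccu
miR-211 (miR-211-5p): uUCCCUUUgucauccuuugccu
miR-9 (miR-9a-5p): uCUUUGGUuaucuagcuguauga
miR-138 (miR-138-5p): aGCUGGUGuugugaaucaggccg
miR-218 (miR-218a-5p): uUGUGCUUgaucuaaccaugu
miR-345-5p (miR-345-5p): uGCUGACCccuaguccagugc
miR-7a (miR-7a-5p): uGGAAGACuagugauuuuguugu

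No 2 of the 6 miRNAs that lay higher share a seed. miR-204 and miR-211 have the same seed and differ at 1 base, yet miR-211 was not detected on any array. miR-338 and miR-7a share a run of 13 bases that starts at base 10 of both, outside the seed. miR-7a was not higher on the 3 arrays: it stood at -4.95 on Control 656, -4.90 on HFD 629 and -4.86 on HFD 663, against -4.90 to -4.40 on the others. In RefSeq, miR-338 comes from 1 locus (chr10:105796345-105796367, minus strand, GRCr8) within Aatk, a kinase gene active in the nervous system, and miR-204 from 1 locus (chr1:229743493-229743514, plus strand, GRCr8) within the ion channel gene Trpm3. miR-218 comes from 2 loci, within Slit2 and Slit3, whose products guide axons. miR-138 comes from 2 loci, 1 of them within Slc12a3, and miR-9 from 3, so the array cannot tell which locus the signal came from. Nothing is read from the host genes.

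The reading that chose the arrays was clear-cut in spots but faint in level. The brighter miR-138 probe was well above background in 10 of 10 spots on Control 656, 10 of 10 on HFD 629 and 9 of 9 on HFD 663. It was so in 0 spots on each of the other 10 arrays, which had 7 to 10 unflagged spots each. The dimmer probe passed in 5 of 10 spots on HFD 629 and in 0 spots on the other 12 arrays. Levels are given on the log2 scale relative to the 75th percentile of well-measured probes on the same array, so that 0 is as bright as that percentile. They are floored at -5.67, and values at the floor have no order. miR-138 stood at -5.41 on Control 656, -5.32 on HFD 629 and -5.61 on HFD 663, and all the other arrays were at the floor. The mean of the 3 arrays was at least 1.10-fold the mean, over those other arrays, of the lowest detected probe after flooring. On some of them, such as Control 631 and HFD 620, that lowest value is the floor itself. HFD 663 by itself lay only 0.057 log2 units above the floor. Before any floor, the brighter probe read a scaled intensity of 0.0213 on HFD 663, the nearest array inside the rule, and 0.0176 on Control 622 and 0.0158 on Control 627, the nearest outside it.

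miR-338 showed the widest separation. Its level was 0.13 on Control 656, 0.26 on HFD 629 and -0.39 on HFD 663, and on the other 10 arrays it ran from -4.49 (Control 658) through a median of -3.13 to -1.07 (Control 622). The groups did not overlap, and the mean of the 3 was 7.81-fold that of the others. It was detected on all 13 arrays, so the difference is one of level and not of presence. The other arrays were themselves spread over more than 3 log2 units, and Control 622 and Control 627 (-1.33), the arrays nearest to the miR-138 rule, were also nearest for miR-338. Within the control arrays alone, Control 656 was 6.24-fold above the mean of the other 6. Within the HFD arrays, HFD 629 and HFD 663 were 12.0-fold above the mean of the other 4.

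miR-204 was next. It stood at -3.03 on Control 656, -2.69 on HFD 629 and -1.95 on HFD 663, against a lowest of -5.67, a median of -4.73 and a highest of -3.30 (Control 622) on the others. The groups did not overlap, with a 4.0-fold difference of means, and the order within the 3 arrays was not that of miR-338: HFD 663 was highest for miR-204 and lowest for miR-338. The difference was unequal within the diets: Control 656 was 2.20-fold above the mean of the other 6 control arrays, and HFD 629 and HFD 663 were 7.10-fold above the mean of the other 4 HFD arrays. On the log2 scale the difference of 2.0 shrank to 1.25 with normexp background correction and to 1.05 with the floor raised 4 times.

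**Figure D1:**
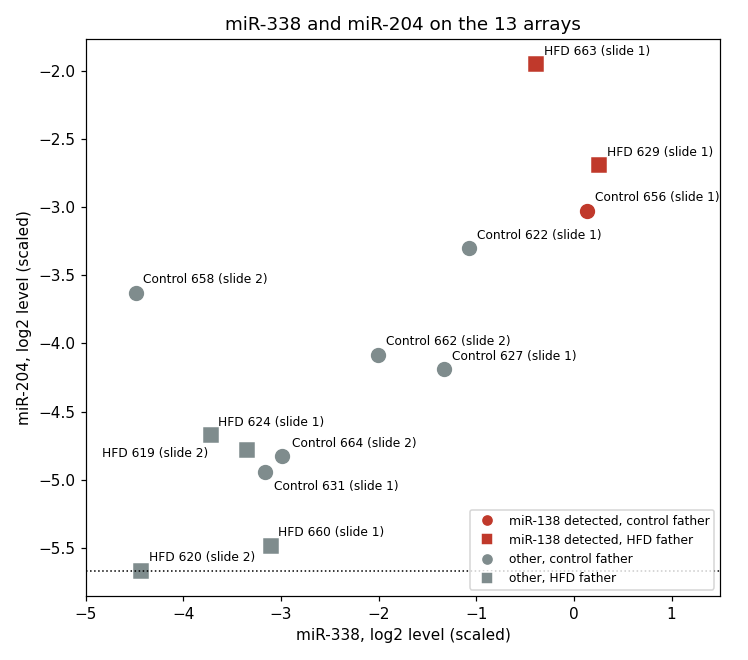
Level of miR-338 (x axis) and of miR-204 (y axis), both log2 relative to the array's 75th percentile, with 1 point per array; circles are control arrays, squares HFD arrays, red points the 3 arrays with miR-138 detected, and the dotted line is the floor at -5.67. The 3 red points lie in the upper right corner, Control 622 lies closest to them, and Control 658 has a high miR-204 (-3.63) with the lowest miR-338 (-4.49).

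miR-9 was faint. It stood at -5.10 on Control 656, -4.83 on HFD 629 and -5.04 on HFD 663. Of the other 10 arrays 9 were at the floor, and on Control 631, the only one where it was detected, it read -5.65. The means differed by 0.67 on the log2 scale, but with 9 arrays at the floor the size depends on how faint signals are treated. It was 2.61 with the scanner's total gene signal and 6.08 in the authors' deposited table with its blanks set to the lowest percentile of the table. For miR-138 it was 0.22, and 2.16 and 2.32 in these alternatives. With the floor raised 4 times both miRNAs were at the floor on every array. miR-9*, from the other arm of the same hairpin, was detected only on HFD 629 and HFD 663, but its level lay at the floor on all 13 arrays. Before any floor, 1 of its probes read a scaled intensity of at least 0.0162 on the 3 arrays and at most 0.00918 on the others. Its other probe read at least 0.0124 against at most 0.00681.

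miR-218 and miR-345-5p were detected everywhere and differed little. miR-218 stood at -3.28 on Control 656, -3.18 on HFD 629 and -3.29 on HFD 663, against -3.73 to -3.41 on the others, with a median of -3.58 and a 1.24-fold difference of means. miR-345-5p stood at -4.46, -4.53 and -4.57 on the same 3 arrays, against -5.08 to -4.61 with a median of -4.77, and a 1.22-fold difference. The lowest of the 3 arrays was only 0.044 log2 units above Control 627, the highest of the others, for miR-345-5p.

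**Figure D2:**
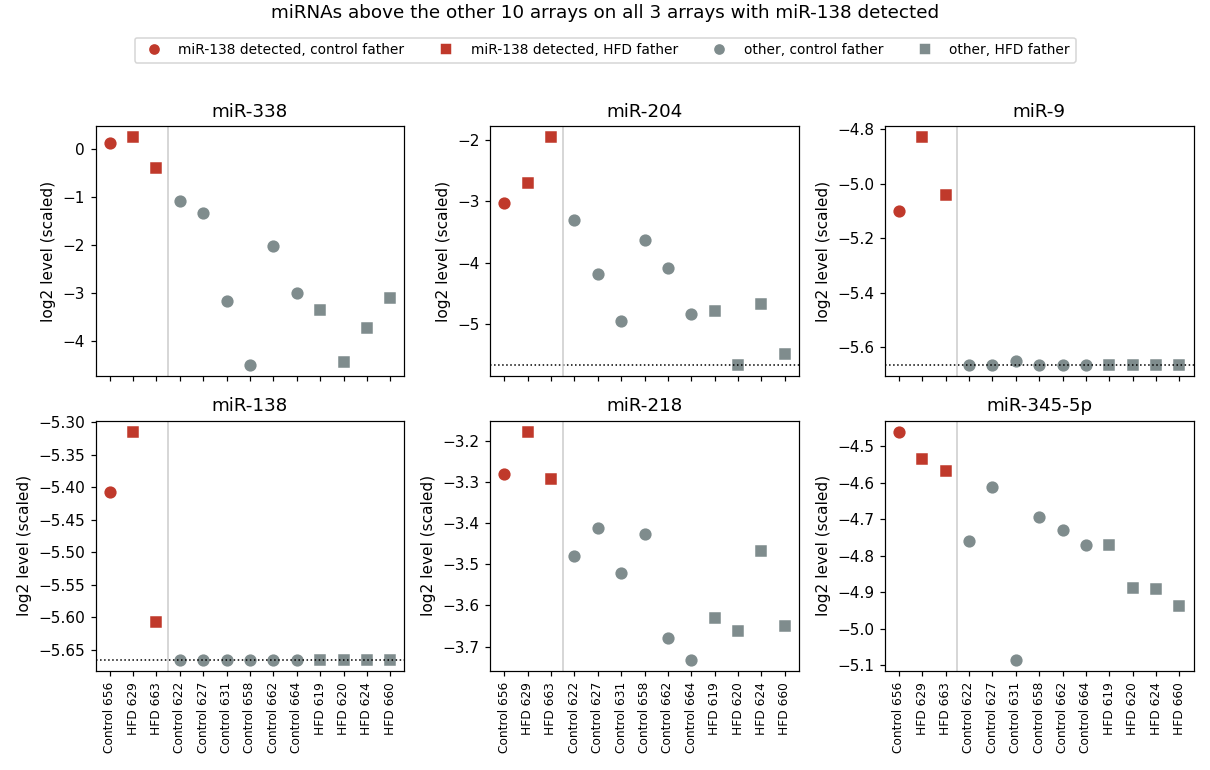
Level of the 6 miRNAs that were higher on all 3 arrays with miR-138 detected (red, left of the line) than on each of the other 10 (grey), log2 relative to the array's 75th percentile; circles are control arrays, squares HFD arrays, the dotted line is the floor at -5.67, and each panel has its own y range. The gap between red and grey points is over 0.6 log2 units only for miR-338, and miR-9 and miR-138 sit near the floor.

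These 6 were all that lay higher on every one of the 3 arrays, 2.91% of the 206 miRNAs detected on at least 1 array. Among the 176 detected on at least 6 arrays there were 4, or 2.27%, namely miR-338, miR-204, miR-218 and miR-345-5p. Apart from miR-138, each of these lay higher on both of its probes. The dimmer miR-138 probe was at the floor on all 13 arrays, and the brighter miR-138 probe is the reading that chose the arrays. Before any floor the dimmer probe read at least 0.0106 on the 3 arrays and at most 0.00805 on the others. It measures the same miRNA and was open to the same rule, so its separation is not independent of the choice. Only 1 of the 206, or 0.485%, lay lower on all 3 arrays: miR-3593-3p, at -5.57 on Control 656, -5.67 on HFD 629 and -5.66 on HFD 663, against -5.56 to -5.11. The 6 depended in part on processing: miR-338 and miR-204 lay higher under every alternative. miR-218, miR-345-5p and miR-138 did not lie apart when the percentile was taken over all probes, nor with normexp. miR-345-5p also lost its separation with quantile normalization, the total gene signal, the deposited value table and the raised floor. miR-218 also lost it with quantile normalization and the deposited value table, and miR-138 and miR-9 with the raised floor. miR-3593-3p lay higher, not lower, in mean in the authors' deposited value table.

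Outside these few miRNAs the 3 arrays resembled the others. Of the 206 miRNAs, 195 had means within 1.25-fold, 63 had a higher and 133 a lower mean on the 3 arrays, and 10 were equal. The median difference was -0.03 over all 206 and -0.04 over the 176. Only miR-338 and miR-204 were at least 2-fold higher. Only miR-122, the liver miRNA, was at least 2-fold lower: it read -5.67, -5.47 and -5.63 on the 3 arrays and from -5.67 to -2.28 on the others, so the groups overlapped, and its highest values were those of Control 622, HFD 620 and HFD 624. The brightest miRNAs, let-7f, let-7a, miR-23a, miR-26a and let-7c, all differed by less than 0.13 log2 units.

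**Figure D3:**
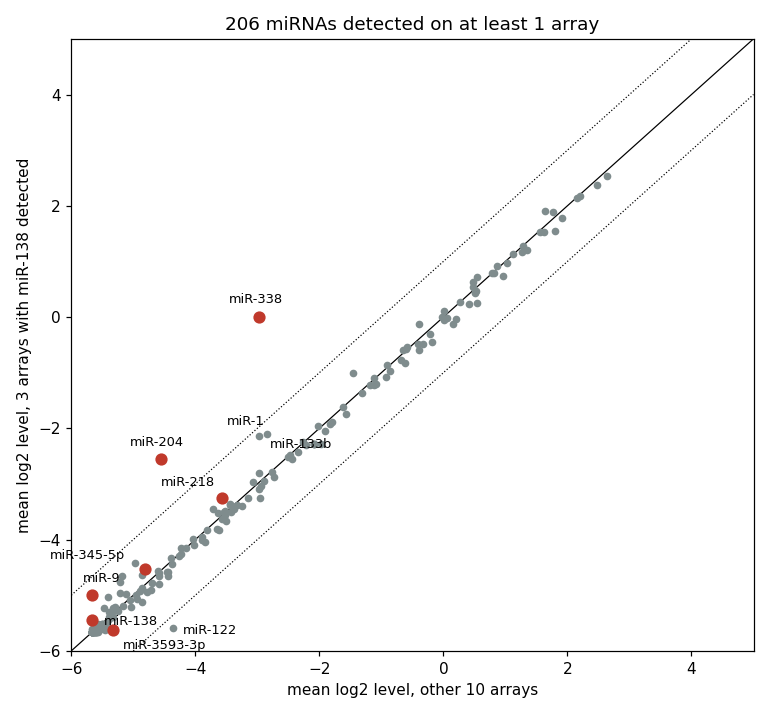
Mean log2 level on the other 10 arrays (x axis) and on the 3 arrays with miR-138 detected (y axis) of the 206 miRNAs detected on at least 1 array; the solid line marks equal means, dotted lines a 2-fold difference, and red points are miRNAs whose groups did not overlap. miR-338 and miR-204 lie above the upper dotted line and miR-122 below the lower one.

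The name neural-rich holds only in part. Of the 15 miRNAs of a neuron list present on the array, 6 were detected, and 3 of them (miR-9, miR-138 and miR-218) lay higher on all 3 arrays, beside 2.91% of all 206 detected miRNAs. miR-9 and miR-138 are markers by which the arrays were named or chosen, so nothing is read from that count. The median difference over the 6, with both of these markers included, was 0.24, beside -0.03 over all detected miRNAs. The 9 others, among them the neuron-defining miR-124 and also miR-137, miR-132, miR-129 and miR-153, were detected on no array. Of the detected neuron members, miR-128 averaged 0.27 higher but overlapped: it stood at -5.22 on Control 656, -4.60 on HFD 629 and -5.03 on HFD 663, against -5.51 to -4.80. miR-212, which is induced by neuronal activity, averaged 0.25 lower, also with overlap.

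Of the 8 miRNAs of a glia list, 3 were detected, and miR-338, itself a naming marker, and miR-204 lay higher on all 3 arrays, again beside 2.91% of all detected miRNAs. The median difference over the 3 was 2.0, beside -0.03 over all. With 3 members, that median is the difference of miR-204 itself, which is best known outside glia. The third, miR-219-5p, was detected only on HFD 629 and HFD 663 and lay at the floor everywhere. Its partner strands miR-219-1-3p and miR-219-2-3p, miR-338*, miR-204* and miR-211 were not detected on any array. The 3 sensory ganglion miRNAs, miR-96, miR-182 and miR-183, were not detected either, nor were the neuroendocrine miR-375 and miR-7b. Both lists hold markers that were used to choose or name the arrays, so their counts and medians are not independent of the choice. In whole fat, a larger share of a cell type and more of a miRNA per cell cannot be told apart.

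HFD 629 differed from its 2 companions in muscle miRNAs. miR-1, which drives muscle differentiation, stood at 2.74 on HFD 629 and at -4.52 on Control 656 and -4.54 on HFD 663. miR-133b, from a cluster with the muscle miRNA miR-206, stood at 2.61 against -4.33 and -4.69. Among the other arrays, Control 662 (2.5 and 2.36) and Control 664 (1.94 and 1.67) were about as rich in miR-1 and miR-133b, yet miR-338 on them was -2.0 and -2.99. Of the 3 muscle-rich arrays, HFD 629 was thus the only one with miR-138 detected. With HFD 629, Control 662 and Control 664 all left out, miR-338 was 2.96 log2 units higher on the remaining 2 arrays and miR-204 2.09, beside 2.97 and 2.0 with them. In that narrower contrast 10 of the 206 miRNAs lay higher and 4 lower. The 10 were the same 6, and miR-301a, miR-127, miR-136 and miR-434, the last 3 from the imprinted Dlk1-Dio3 cluster. With fewer arrays set against each other, more miRNAs separate by order alone, so nothing is read from the added ones. With all arrays kept, miR-136 stood at -5.23 on Control 656, -4.84 on HFD 629 and -5.04 on HFD 663, inside the range of the others (-5.67 to -4.55).

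Red cell miRNAs also split the 3 arrays. miR-451, the erythroid miRNA, was 0.64 on Control 656, near the lowest of all arrays (0.62), and 2.60 on HFD 629 and 2.48 on HFD 663, above all the others (up to 2.32). miR-144, from the same cluster, was likewise low on Control 656 and high on the others of the 3, at -2.43, -0.31 and -0.27 against -2.61 to -0.68. Their part in the result was not tested. The other lists lay close to the background: none of the members of the white blood cell, epithelium, endothelium, mesenchyme, imprinted Dlk1-Dio3 and fat lists was higher or lower on all 3 arrays. Means were lower on the 3 arrays for 64.6% of all 206 miRNAs, with a median difference of -0.03. Beside that, all 6 detected white blood cell miRNAs, all 8 mesenchyme, all 4 epithelium and all 3 liver, gut and kidney miRNAs had lower means, with medians of -0.09, -0.14, -0.15 and -0.13. The mesenchyme, white blood cell and epithelium list means were also taken per array, minus the median over the other 10. For mesenchyme this was 1.46 on Control 658 and 0.061 on Control 664, the next highest of the 10. It was 0.14 on Control 656, -0.15 on HFD 629 and -0.04 on HFD 663. Among the other 10, Control 664 was highest for white blood cell (0.44) and epithelium (0.36). The part of these single arrays in the lower means was not tested. Among 13 detected fat miRNAs 10 had a lower mean, near the share over all miRNAs, with a median of -0.05.

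**Figure D4:**
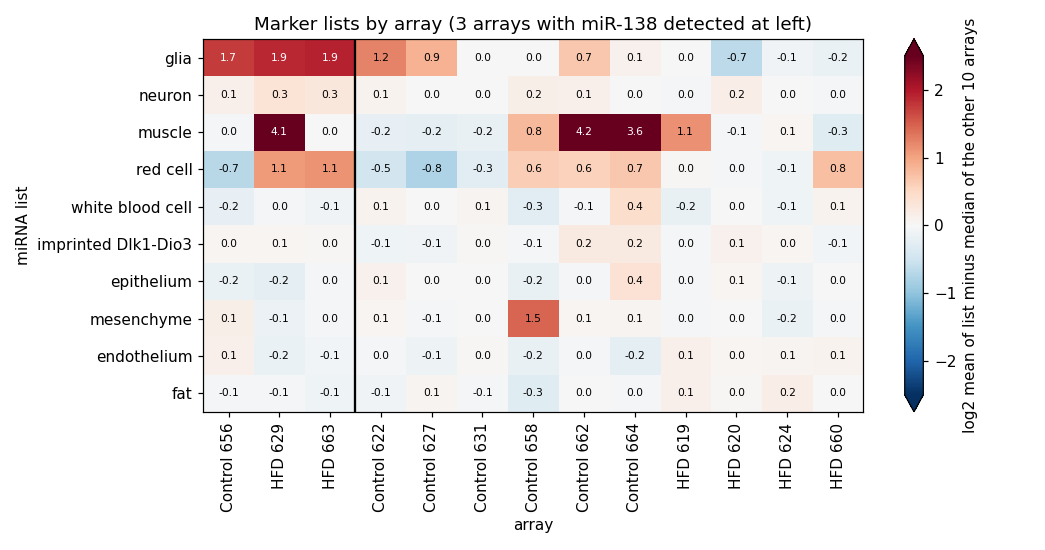
Mean log2 level of the detected members of each miRNA list on each array, minus the median of that mean over the 10 arrays without miR-138; red is higher and blue lower, and the color scale stops at 2.5 either way. The 3 arrays at left have the highest glia values, and Control 622 and Control 627 come next. For the neuron list Control 656 lies inside the range of the other arrays. The muscle list is high on HFD 629, Control 662 and Control 664 alike.

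HFD 629 and HFD 663 detected more miRNAs than any of the other arrays, but Control 656 did not. Control 656 detected 174, HFD 629 detected 189 and HFD 663 detected 196, against 154 to 176 on the others, so that only HFD 629 and HFD 663 lay outside that range. Of 30 miRNAs detected on 1 to 5 arrays, 12 were detected only on the 3 arrays and 4 only on others. The 12 include miR-138, whose detection is the rule, and it is the only one of them detected on Control 656. Nothing is therefore read from that count about the 3 arrays as a set. HFD 663 held 20 of the 30, HFD 629 held 15 and Control 656 held 4, while the others held 0 to 9. Of the 12, miR-138 was detected on all 3 arrays, and miR-9*, miR-219-5p and miR-582 on HFD 629 and HFD 663. Another 6, among them miR-34c and both miR-129 star strands, were detected on HFD 663 alone, and miR-363 and miR-7a-1* on HFD 629 alone. The share of spots well above background was 22.4% to 25.1% on the 3 arrays and 19.98% to 23.8% on the others, and the intensity at the scaling percentile was 2056 to 2540 against 1546 to 2167. Local background (61.2 to 61.3 against 56.7 to 67.0) lay inside the range of the others. The 3 arrays were not especially alike: any 2 of them differed by a median of 0.121 to 0.185 log2 units over the 176 miRNAs, beside 0.0746 to 0.225 for pairs of the others.

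All 3 arrays lay on slide 1, in slide column 2, together with Control 627. Slide 1 held 8 arrays and slide 2 held 5. Within slide 1, against the 5 others there, 10 of the 206 miRNAs lay higher on all 3 arrays and 12 lower. All 6 named above were among the 10. miR-338 was then 2.48 log2 units higher and miR-204 1.96. Within slide column 2, against the 4 others there, 9 lay higher and 7 lower. The 9 again held all 6, and miR-338 was 2.78 higher. Both contrasts hold fewer arrays than the full one, so more miRNAs separate by order alone. Since slide 2 holds none of the 3 arrays, the difference could not be looked at there. The only other array in column 2 of slide 1, Control 627, read -1.33 for miR-338 and -4.19 for miR-204.

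Paternal diet was compared next, since it did not enter the choice of arrays. miR-138 met the rule on 1 of 7 control arrays and 2 of 6 HFD arrays (two-sided Fisher's exact test, p = 0.559). With 3 such arrays among 13 this test cannot go below p = 0.0699, so it could not have reached the threshold of 0.05. miR-338 averaged -2.13 ± 1.54 (SD, n = 7) on control and -2.46 ± 1.92 (SD, n = 6) on HFD arrays, a difference of -0.33 that was smaller than either spread (two-sided exact permutation test over 1716 splits, p = 0.738). The limma interval of that difference ran from -2.26 to 1.605 with an adjusted p of 0.983. miR-9 differed by 0.16 (exact permutation p = 0.385) and miR-138 by 0.03 (exact permutation p = 0.629), and all 3 had p = 0.738 after Benjamini-Hochberg adjustment of the exact permutation p-values. With these values the smallest exact permutation p that can be reached is 0.00117 for miR-338 and 0.042 for miR-9. For miR-138, where 10 arrays are at the floor, it is 0.14, so that test could not have passed either. Given that value for miR-138, miR-9 could not have passed 0.05 after adjustment over the 3 miRNAs. Each slide held arrays of both diets, and the miR-338 difference was -0.51 with slide as a block, -0.38 within slide 1 and -0.73 within slide 2, with limma adjusted p-values of 0.953, 0.922 and 0.728.

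Over the 176 miRNAs detected on at least 6 arrays, limma with Benjamini-Hochberg adjustment called 0, or 0%. At an unadjusted p under 0.05 there were 2, and no adjusted p was below 0.965. With the 3 arrays left out limma with the same adjustment also called 0, with 15 at an unadjusted p under 0.05. Without them the HFD minus control difference was -1.14 for miR-338 and -0.99 for miR-204. These 2 values are given without a test, because the arrays left out, 2 HFD and 1 control, are those where both miRNAs were highest.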

How the data were processed

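Total RNA was labelled with Cy3 and hybridised to 1-colour Agilent rat miRNA arrays, per the labels. Per the file headers, the authors read each array with Feature Extraction 10.7.3.1 on an rn4 grid. The deposited spot values are background-subtracted intensity, not normalized between arrays. The deposited value table holds log2 of the total gene signal, found by setting its columns against the array files, and 26 of its 2569 values differed from that by more than 0.0002. RMA and Partek appear in the submitters' processing notes, with no role given.

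With control spots left out, each array held 13540 spots of 1644 probes. Outlier-flagged spots, 262 to 502 per array, were then dropped and the rest averaged per probe. Probe values were scaled to the 75th percentile of the 260 probes that every array detected. They were floored at 0.0197, taken to log2 and averaged per miRNA. Detection needed at least 0.5 of a probe's spots to pass background, and testing needed detection on at least 6 arrays. No spot was saturated. Replicates are limited to 7 and 6 arrays, which limits the precision.

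Diet was tested with limma 3.58.1 (R 4.3.3, two-sided, Benjamini-Hochberg, threshold 0.05) and with exact tests in SciPy 1.17.1. The limma step was also run on simulated data, whose result is not given here. The normexp alternative used the median spot signal in place of the mean spot signal that was planned. Blanks of the deposited table were set to its 1st percentile. Other alternatives changed the percentile, normalization, summary, floor, detection filter, slide and arrays. The arrays and miRNA lists were chosen with earlier results of these data known. miRNAs named are the markers, detected members of the nerve lists, the 12 largest differences each way, up to 4 per other list, the 5 brightest, and those higher on all 3 arrays. By these rules miR-345-5p was named only for its measured difference, and miR-204 and miR-218 for a list and their measured difference. Some of the miRNAs named are given only as counts. The names used are those of the array, and arms were matched to RefSeq by hand. miR-301a, miR-434, miR-582, miR-770* and the rarely detected miRNAs were named after their values were seen.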

Additional observations from a re-analysis of the deposited data

Results flagged for a closer look

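Of 30 groups of 6 or 7 arrays looked at, 4 held an array far from the rest. Chance gives about 1 in 20, but 3 of the 4 concern miR-138 or miR-9 on the chosen arrays, so the count is not set against that rate. For miR-138 on the control arrays, Control 656 (-5.41) stood apart from the others, which were all at the floor of -5.67. For miR-138 on the HFD arrays, HFD 629 (-5.32) stood apart from the others (-5.67 to -5.61). For miR-9 on the control arrays, Control 656 (-5.10) stood apart from the others (-5.67 to -5.65). These 3 follow from the reading that chose the arrays or from floored values beside it. For miR-7a on the control arrays, Control 664 (-4.47), which is not one of the 3, stood apart from the others (-4.95 to -4.80).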

How the results depend on the processing

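The number of miRNAs higher on all 3 arrays was 6; it was 3 with the percentile over all probes, with normexp and with the floor raised 4 times, and 10 without the muscle-rich arrays and within slide 1. Within control arrays, where 1 array is set against 6, it was 24, and within HFD arrays 21. Without a floor it was 9, the same 6 with miR-9*, miR-363 and miR-376a. The 3 that then lay lower were miR-3593-3p, miR-770* and miR-211*, the other strand of miR-211. miR-211* was detected on HFD 629 and HFD 663 and also on HFD 624 and HFD 660. The number lower on all 3 was 1; it was 0 with the percentile over all probes, quantile normalization and the raised floor, 12 with normexp and within slide 1, 6 with the total gene signal, 5 with the deposited value table, 4 without the muscle-rich arrays, 22 within control arrays, 45 within HFD arrays and 7 within slide column 2, an alternative chosen after seeing the data, as was leaving out the floor. Leaving out 1 of the 3 arrays in turn gave 7 to 10 higher and 3 to 5 lower. The median difference of -0.03 was -0.097 with the percentile over all probes, -0.124 with normexp, -0.0815 with the total gene signal, -0.163 with the deposited value table, -0.000747 within control arrays, and 0 with the raised floor, no detection filter and within slide 1. The difference of miR-3593-3p turned to 1.86 in the deposited value table, where blanks were set to the lowest percentile. The diet difference of miR-138 turned to -0.059 with normexp and -0.025 without HFD 629. That of miR-338 turned to 0.051 without Control 656 and 0.069 without HFD 620. That of miR-9 turned to -0.013 with normexp, -0.094 with the total gene signal and -0.0026 without the 3 arrays. Over all arrays left out in turn, the diet difference ran from -0.025 to 0.068 for miR-138 and from -0.87 to 0.069 for miR-338. The cause was not tested, and none of these differences passed a test. The diet comparison called 0 miRNAs in each alternative. No paired analysis was possible because the animal numbers are all different. Values near the floor, as for miR-138 and miR-9, limit what can be read.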
